A study of Mus musculus with 4 samples.

Results

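Chromatin accessibility was compared between fetal basal-like and adult basal nuclei of the mouse mammary gland, measured by single-nucleus ATAC-seq, which marks open DNA by where the Tn5 enzyme inserts. The nuclei were chosen by the authors' cluster number: class 4 in the 2 fetal libraries and class 1 or 8 in the 2 adult libraries, 1520 of 7846 nuclei in all. Fetal replicates 1 and 2 held 132 and 338 such nuclei, and adult replicates 1 and 2 held 335 and 715. All libraries came from wild-type CD1 mice, with epithelial cells sorted as EpCAM+ and Lin-, at embryonic day 18 for the fetal group and at 8 weeks for the adult group, with 2 biological replicates per stage. The labels do not say how many animals went into a replicate. The classes were drawn by the authors over the chromatin of these same nuclei and nearly separated the stages: 10 class 8 and 0 class 1 nuclei were fetal, and 6 class 4 nuclei were adult, and these were left out. The tests below take the classes as given.

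The mammary epithelium has an outer basal layer and an inner luminal layer. Adult basal cells are mostly myoepithelial: they lie on the basement membrane, carry keratins 5 and 14 and the transcription factor p63, and hold smooth muscle proteins that contract under oxytocin to eject milk. Shortly before birth the gland is a small branched bud in which cells still share traits of both layers.

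The fetal basal-like nuclei yielded 971201 and 3108478 reads and the adult basal nuclei 1615142 and 3994925. No barcode was shared between libraries. The median nucleus held 6224.5 and 7081.5 reads in the fetal replicates and 3926 and 4532 in the adult replicates, so the fetal nuclei were read more deeply. Reads in the authors' promoter regions made up 20.8% and 19.2% of fetal reads and 22.5% and 21.6% of adult reads, and the 2 adult classes differed more from each other than the stages did, at 25.8% and 25.5% in class 1 against 18.9% and 17.5% in class 8. Distal regions held 42.1% and 41.0% of fetal reads and 43.0% and 40.4% of adult reads. These values were not tested, since an exact permutation test of 2 against 2 libraries gives no p under 0.33.

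The authors' classes are numbers without names, and the names basal, basal-like and luminal progenitor-like were read from markers. The marker levels below describe the classes and are not an independent check of the names. They were taken over gene spans, the reads from 2000 bases before to 2000 bases after each gene. In the adult nuclei all 12 basal markers lay above the luminal progenitor-like nuclei of the same stage (class 3 or 7) in both libraries. In the fetal nuclei 7 of 12 lay above the fetal luminal progenitor-like nuclei (class 9) in both libraries, and none lay below them in both. In the same fetal contrast 3 of 5 markers of differentiated epidermis and 3 of 8 stromal markers also lay above, with 0 and 1 below. The share over all gene spans was not computed for this contrast. The summed basal markers reached 606 and 656 CPM, counts scaled to 1000000 reads, in fetal basal-like nuclei, against 479 and 435 in fetal luminal progenitor-like nuclei and 1307 and 1162 in adult basal nuclei. All 7 luminal markers, among them Krt8 and Krt18, lay below the luminal progenitor-like nuclei at both stages. The summed luminal markers were 205 and 179 in fetal and 172 and 151 in adult basal nuclei. Markers of luminal progenitors stood higher in the fetal basal-like nuclei, at 257 and 232 against 142 and 147. Their sum was 368 and 349 in fetal class 9, beside 476 and 455 in adult classes 3 and 7. Of these 6 markers, 3 lay below class 9 in both libraries in the fetal contrast, and all 6 did so in the adult contrast. Whether class 9 is the fetal counterpart of classes 3 and 7 was not tested. Stromal markers (135 and 161 in fetal, 148 and 144 in adult), endothelial markers (110 and 95.9, 116 and 92.9) and immune markers (45.3 and 70.8, 39.0 and 58.3) overlapped between the stages. The sum of 5 markers of differentiated epidermis (55.6 and 61.1 in fetal, 51.4 and 43.8 in adult) and that of 3 adipocyte markers (25.7 and 23.5, 9.91 and 22.5) were higher in both fetal libraries, with no marker of either list at 0, and their part in the results was not tested. Of the stromal, endothelial and immune markers Lum was at 0 in fetal replicate 1, Lyz2 in fetal replicate 2 and both adult libraries, Cd3e in adult replicate 1 and Tie1 in adult replicate 2. The stromal sum in the class 6 nuclei of the same libraries was between 618 and 808. By the summed basal and luminal lists the fetal nuclei were on the basal side of their own stage, with a smaller gap than in the adult.

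**Figure D1:**
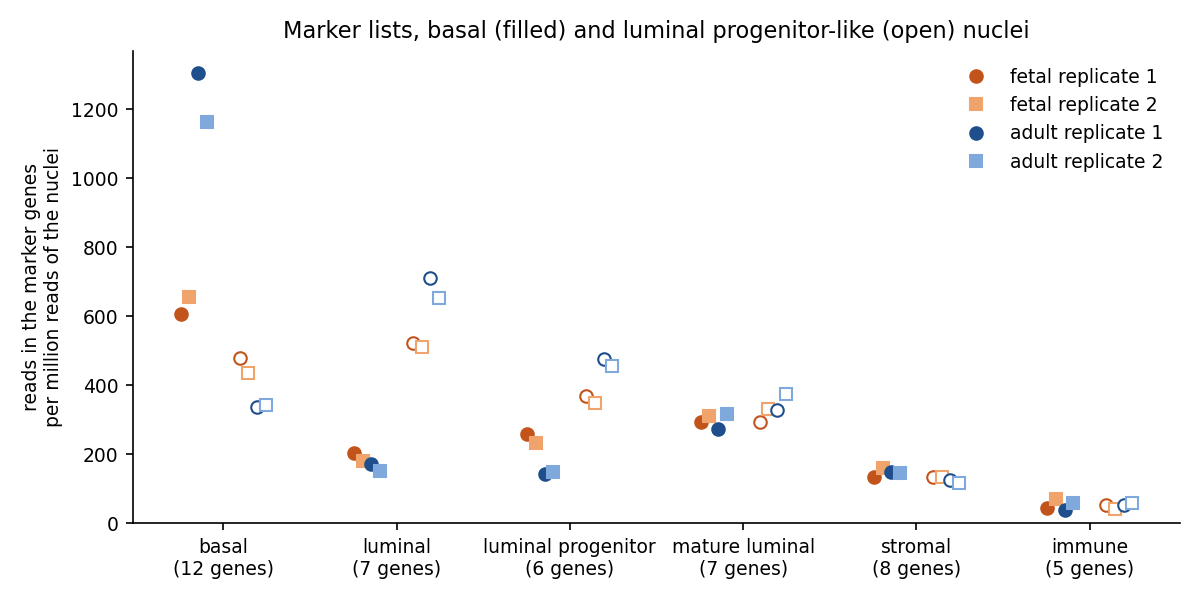
CPM summed over the genes of 6 marker lists, over all reads of the nuclei (vertical axis, linear from 0), for basal nuclei (filled) and luminal progenitor-like nuclei (open) of each of the 4 libraries (colour and shape). The basal list stood at 606 and 656 in the fetal and at 1307 and 1162 in the adult basal nuclei.

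Smooth muscle and keratin genes of basal cells were among those with lower accessibility in the fetal nuclei. Those with higher accessibility included Sox11, Igf2bp1, Igf2bp2 and Igf2bp3, from a list of genes of the fetal gland and bud. Across all genes, 1424 of 23833 gene spans averaging 10 or more reads over the libraries passed edgeR's quasi-likelihood test at an adjusted p under 0.05 (5.97% of those tested), 660 higher (2.77%) and 764 lower (3.21%) in fetal nuclei. A span value is scaled to CPM by TMM, and each change below is the log2 ratio of fetal to adult, from 2 libraries per stage. The ± value after a change is its size divided by the square root of edgeR's F statistic, an approximate standard error. The libraries of the stages did not overlap, fetal above, for 25.3% of spans, and fetal below for 25.1%. Across the gene lists tested, 42 genes were called, and 22 of these were also called by DESeq2. The 42 include 1 of 10 factors of epithelial-mesenchymal transition, lower in fetal nuclei and not called by DESeq2, which is not described below.

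Of 19 contractile genes tested, 7 were lower in fetal nuclei and 0 were higher, and the list's median log2 change was -0.19 beside 0.00 over all spans. DESeq2 called 6 of the 19. Oxtr, the oxytocin receptor (chr6:112473683-112491035), was at 18.5 and 39.5 CPM in the fetal libraries and at 129 and 144 in the adult libraries. Its log2 change was -2.09 ± 0.25 (adjusted p = 4.89e-06), the largest fall of the list, and the stages did not overlap. Myh11, the heavy chain of smooth muscle myosin (chr16:14194527-14292188), was at 34.7 and 40.9 against 142 and 132, a change of -1.82 ± 0.23 (adjusted p = 6.44e-06). Cnn1, encoding calponin, was at 4.63 and 20.1 against 46.5 and 39.5 (-1.53 ± 0.38, adjusted p = 0.0119). Acta2, encoding smooth muscle actin, was at 49.7 and 67.0 against 110 and 123 (-0.96 ± 0.22, adjusted p = 0.00747). Synpo2 (-0.95), Lmod1 (-0.85) and Mylk (-0.85), the myosin light chain kinase, also fell. Oxtr, Myh11, Mylk and Synpo2 passed with any 1 library left out. Without fetal replicate 1 the adjusted p rose to 0.0579 for Acta2, 0.0662 for Cnn1 and 0.0535 for Lmod1, and without adult replicate 1 it was 0.0975 for Lmod1.

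All 6 basal keratins were lower in both fetal libraries than in both adult libraries, and 3 passed the test, with a list median of -1.13. DESeq2 called 2 of the 6. Krt5, the defining keratin of basal cells, was at 23.1 and 29.8 CPM in the fetal and at 71.8 and 71.5 in the adult libraries (-1.39 ± 0.27, adjusted p = 0.00164). Krt17 was at 62.4 and 37.2 against 133 and 121 (-1.44 ± 0.24, adjusted p = 0.000345). Krt16 was at 3.47 and 8.19 against 22.6 and 22.8 (-1.77 ± 0.48, adjusted p = 0.0225), and lost the call without fetal replicate 1 (0.0805), adult replicate 1 (0.0616) or adult replicate 2 (0.0921). Krt14, the partner of keratin 5, was at 49.7 and 54.3 against 114 and 66.3 and did not pass (-0.75 ± 0.25, adjusted p = 0.074). Krt8 (0.41, adjusted p = 0.387) and Krt18 (-0.12, adjusted p = 0.936), the luminal keratins, did not pass either, and the sign of Krt18 turned with the libraries used.

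Of 18 regulators of the basal state, 4 fell and 1, the ligand gene Nrg1, rose, with a list median of -0.18. DESeq2 called 1 of the 18, Nrg1. Trp63, encoding p63, was at 154 and 187 CPM in the fetal and at 273 and 242 in the adult libraries (-0.58 ± 0.17, adjusted p = 0.0356). This call was lost without fetal replicate 1 (0.251), fetal replicate 2 (0.0502) or adult replicate 1 (0.163). Lgr6 (-0.63), Mef2c (-0.70) and Fgf1 (-0.58) were called with adjusted p from 0.0465 to 0.0479. Each of these lost the call without fetal replicate 1, with adjusted p of 0.31, 0.366 and 0.154, and Lgr6 also without adult replicate 1 (0.289), Mef2c without adult replicate 2 (0.239), and Fgf1 without fetal replicate 2 (0.174) or adult replicate 2 (0.268). Sox10 (0.04, adjusted p = 0.949) and Sox9 (-0.48, adjusted p = 0.29), both linked to progenitor states of the gland, did not pass. Among 23 matrix and adhesion genes, 5 fell and 1 rose, and DESeq2 called 2, Lama1 and Lamb3. Lama1 (71.7 and 79.3 against 190 and 155, -1.17 ± 0.20) and Lamb3 (70.5 and 76.7 against 158 and 152, -1.06 ± 0.20), which encode laminin chains of the basement membrane, passed with any library left out. Fn1, encoding fibronectin, rose from 37.6 and 25.9 in the adult to 77.5 and 64.8 in the fetal libraries (1.18 ± 0.27, adjusted p = 0.00753, but 0.101 without adult replicate 2). Col7a1 (-1.08), Col17a1 (-0.83) and Sparc (-0.81) fell; without adult replicate 1 their adjusted p were 0.0947, 0.243 and 0.293, and without fetal replicate 1 they were 0.0762, 0.219 and 0.0758. Leaving out fetal replicate 2 also ended the calls of Col7a1 (0.0688) and Sparc (0.235), and leaving out adult replicate 2 that of Col7a1 (0.0758).

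Of 22 genes of the fetal gland and bud, 4 rose and 0 fell, with a median log2 change of 0.45, and DESeq2 called 3. Sox11, a transcription factor of embryonic progenitors (chr12:27334268-27342718), was at 50.9 and 58.4 CPM in the fetal and at 9.58 and 10.1 in the adult libraries (2.47 ± 0.33, adjusted p = 2.1e-05). The RNA-binding proteins Igf2bp1 (32.4 and 41.3 against 17.8 and 10.1, 1.51 ± 0.36), Igf2bp2 (201 and 227 against 119 and 96.6, 1.01 ± 0.18) and Igf2bp3 (117 and 119 against 42.4 and 62.3, 1.14 ± 0.22) all rose. Igf2bp1 lost the call without fetal replicate 2 (0.128) or adult replicate 2 (0.159). Lin28b was at 43.9 and 51.7 against 37.6 and 25.7 and did not pass (0.66 ± 0.29, adjusted p = 0.191). Cell cycle genes gave 0 calls of 20 in edgeR's test and in DESeq2, with 4 at an unadjusted p under 0.05 and a median of 0.14.

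Markers of luminal progenitors gave 3 higher and 0 lower of 6. Kit, a receptor tyrosine kinase, was at 35.8 and 31.3 CPM in the fetal and at 10.9 and 12.7 in the adult basal nuclei (1.46 ± 0.37, adjusted p = 0.0144, and 0.0629 without adult replicate 1). Csn3, encoding kappa casein, was at 11.6 and 35.0 against 6.84 and 7.21 (1.83 ± 0.48, adjusted p = 0.0174), and without fetal replicate 2 its change was 0.72 (0.721). Aldh1a3, an aldehyde dehydrogenase, was at 85.6 and 67.4 against 39.7 and 42.4 (0.86 ± 0.25, adjusted p = 0.0329), and the luminal claudin Cldn4 was at 41.6 and 32.4 against 17.8 and 14.1 (1.21 ± 0.35, adjusted p = 0.0333). Cldn4 belongs to the list of 7 luminal markers, of which it was the only 1 called. Without adult replicate 1 the adjusted p was 0.111 for Aldh1a3 and 0.0566 for Cldn4. Without fetal replicate 1 it was 0.181 and 0.136, and without adult replicate 2 it was 0.0794 and 0.204. DESeq2 called none of these 4 genes (adjusted p from 0.108 for Kit to 0.198 for Cldn4). In fetal luminal progenitor-like nuclei, Kit was at 36.3 and 54.7 CPM of all reads, beside 31.9 and 27.0 in the fetal basal-like and 138 and 140 in the adult luminal progenitor-like nuclei. Nuclei of luminal progenitors within class 4 and basal nuclei with open luminal loci cannot be told apart in these sums.

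Signalling genes changed in both directions. Of 14 ErbB receptors and ligands, 3 ligands rose and 1 receptor fell, and DESeq2 also called 4. Nrg4 was at 43.9 and 28.7 CPM in the fetal and at 2.74 and 8.94 in the adult libraries (2.40 ± 0.44, adjusted p = 0.00101). Nrg1 was at 1127 and 1038 against 650 and 715 (0.66 ± 0.11, adjusted p = 0.000477), and Tgfa rose by 0.88, with an adjusted p of 0.00396 that became 0.178 without fetal replicate 2. Egfr, the receptor, was at 167 and 209 against 306 and 366 (-0.83 ± 0.16, adjusted p = 0.00201). Of 34 Wnt pathway genes, 3 rose and 3 fell, and DESeq2 called 3. The ligand Wnt3 (1.44), the nuclear effector Lef1 (0.87) and the antagonist Sfrp1 (1.11) rose, and the ligand Wnt10a (-1.18), the antagonist Dkk3 (-0.95) and the feedback inhibitor Nkd1 (-1.05) fell. The 3 falls passed with any library left out. Without adult replicate 2 the adjusted p was 0.201 for Wnt3 and 0.101 for Sfrp1, without fetal replicate 1 it was 0.113 for Wnt3 and 0.0814 for Lef1, and without adult replicate 1 it was 0.244 for Lef1. Of 18 Notch pathway genes, Notch1 (0.73, adjusted p = 0.0417) and Mfng (1.86, adjusted p = 0.0251), which modifies Notch receptors, rose; Notch1 lost the call without any one of the 4 libraries (adjusted p from 0.0512 to 0.272), and Mfng without adult replicate 1 (0.174). DESeq2 called 0 of the 18, with adjusted p of 0.191 for Notch1 and 0.144 for Mfng. Of 8 steroid and prolactin receptors 0 passed edgeR's test or DESeq2, with 3 at an unadjusted p under 0.05, and of 14 AP-1 and CNC genes 0 passed either, again with 3 at an unadjusted p under 0.05.

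The 10 largest rises and 10 largest falls without overlap, among spans averaging 50 or more reads, all passed with any 1 library left out. They were picked from calls on all libraries, so passing again on part of the same libraries follows in part from the choice. The largest rise was Apol8 (chr15:77745109-77757062), at 54.3 and 64.4 CPM in the fetal and 9.58 and 7.78 in the adult libraries (2.82 ± 0.34, adjusted p = 4.89e-06). Sox11, Iqsec3 (2.30), Vps45 (2.28), Sparcl1 (1.96), Kcnn4 (1.92), a calcium-activated potassium channel, Grxcr1 (1.92) and the less described LOC330143 (2.49), Gm52832 (2.33) and Gm36756 (1.98) followed. The spans of Sparcl1 and LOC330143 overlap and share reads. The falls were led by Gm20670 (-2.85), LOC105245613 (-2.71), Endou (11.6 and 14.5 against 93.7 and 66.9, -2.54 ± 0.31), Plaat1 (4.63 and 9.68 against 49.9 and 45.3, -2.54 ± 0.37) and Gm31901 (-2.46), then Accs (-2.34), 4930486F22Rik (-2.33), Gm6994 (-2.32), 4732465J04Rik (-2.30) and A630001O12Rik (-2.28). Further protein-coding falls, chosen after their values were seen, were Jph2 (13.9 and 23.5 against 97.8 and 79.8, -2.12 ± 0.28), which links the cell surface to calcium stores in muscle, Arrb1 (46.3 and 72.2 against 268 and 194, -1.89 ± 0.21), encoding beta-arrestin 1, and Ntrk3 (85.6 and 83.7 against 285 and 282, -1.75 ± 0.18), a neurotrophin receptor. All 3 passed with any library left out and against adult class 1 or class 8 alone.

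**Figure D2:**
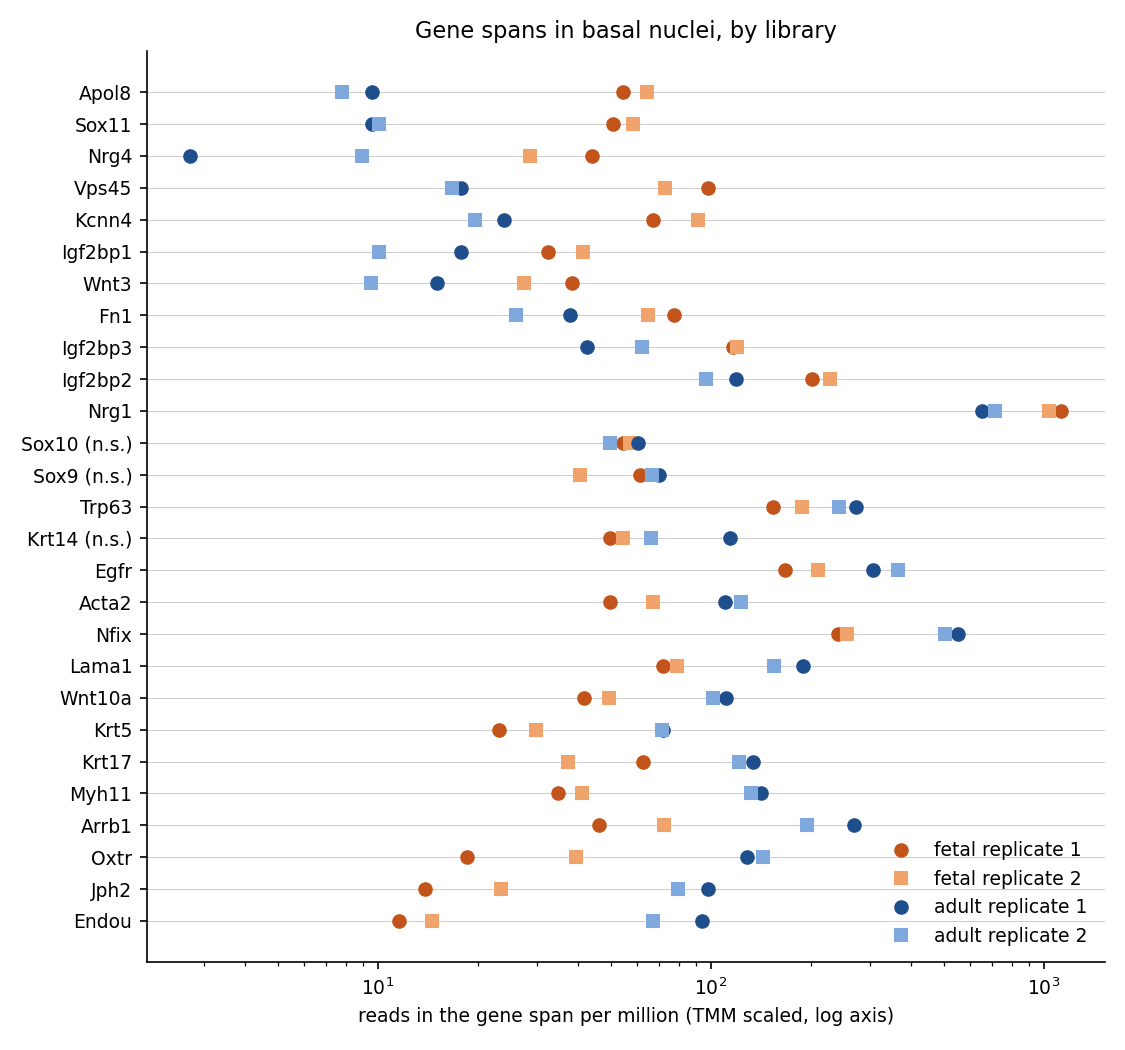
TMM-scaled CPM in each gene span (horizontal, log axis) for the basal nuclei of each library, ordered by log2 change, with spans that did not pass marked n.s. Fetal and adult libraries stood apart at Sox11 (50.9 and 58.4 against 9.58 and 10.1) and at Oxtr (18.5 and 39.5 against 129 and 144), and overlapped at Sox10.

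The 2 adult classes gave unlike numbers of calls. Against class 1 alone 2674 spans were called, and against class 8 alone 232. Of the 24 named protein-coding spans, all 24 were called against class 1 and 18 against class 8, with the same sign in all 24. Of the 42 calls in the gene lists, 39 were called against class 1 and 11 against class 8, again with the same sign in all 42. The 11 included Oxtr (adjusted p = 0.00258), Myh11 (0.000772), Krt5 (0.0366), Krt17 (0.0105), Sox11 (0.0246), Lama1 (0.0152) and Nfix (0.0105). Trp63 changed by -0.74 against class 1 and by -0.34 against class 8 (adjusted p = 0.524), and Sox11 by 3.66 and 1.69.

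At the authors' promoter regions, each 1000 bases wide, few differed. Of 12129 regions tested, 188 were called (1.55%), 85 higher (0.701%) and 103 lower (0.849%) in fetal nuclei. DESeq2 called 17, and edgeR with all reads of the nuclei as library size called 55 higher and 196 lower. Libraries of the stages did not overlap, fetal above, at 21.5% and, fetal below, at 21.9% of regions. Fewer of the called regions held a RefSeq gene start than of those tested: 48.8% of the 80 higher and 46.5% of the 99 lower, beside 68.3% of 11816, counted over the chromosomes and genes of the RefSeq promoter table used here, which lacks some genes. Without adult replicate 1 the count was 47 and without adult replicate 2 it was 52. Of the 16 named regions, 5 passed with any 1 library left out, 7 were called by DESeq2, and 2 of the 11 that could be tested passed against adult class 8 alone.

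Few basal genes could be matched to a tested promoter region by a start of the RefSeq promoter table: 1 of 6 basal keratins, 8 of 20 contractile genes and 5 of 18 basal regulators. That table lacks some genes, so a gene without a match may still have a tested region. Oxtr, Myh11, Cnn1, Mylk, Lmod1, Krt5, Krt16, Krt17 and Trp63 had no match, and the counts here do not cover them. Both edgeR and DESeq2 called 0 of the matched regions in each list, with 1, 0 and 0 at an unadjusted p under 0.05. The median log2 change was 0.26 over the matched regions of contractile genes and 0.25 over those of basal regulators. Over all promoter regions tested it was 0.0027. The region at the start of Krt14 was at 26.7 and 41.0 CPM in the fetal and 119 and 52.3 in the adult libraries (-1.17 ± 0.49, adjusted p = 0.281), and that at Acta2 at 74.7 and 123 against 113 and 141 (-0.29 ± 0.33, adjusted p = 0.784), where the stages overlapped. Of 10 tested promoters of fetal and bud genes edgeR called 2, both higher, and DESeq2 called 0. The first was Sox11 (chr12:27341816-27342815), with 10 and 68 reads in the fetal and 10 and 15 in the adult libraries, or 53.4 and 121 against 29.0 and 18.2 CPM (2.06 ± 0.50, adjusted p = 0.0168). It was called only without fetal replicate 1 when single libraries were left out, and without fetal replicate 2 its adjusted p was 0.478, without adult replicate 1 it was 0.0639 and without adult replicate 2 it was 0.295. The second was Igf2bp2 (chr16:22162487-22163486), with 17 and 47 against 0 and 29 reads (1.98 ± 0.55, adjusted p = 0.043). Adult replicate 1 had no read there, and without it the adjusted p was 0.496; without fetal replicate 1 or 2 it was 0.0502 and 0.0799.

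Among regions averaging 20 or more reads, with no overlap between the stages, the largest rise that held a gene start was at Kcnn4 (chr7:24369390-24370389). It had 22 and 64 reads in the fetal and 6 and 18 in the adult libraries, or 117 and 114 against 17.4 and 21.9 CPM (2.50 ± 0.48, adjusted p = 0.0011). It passed with any 1 library left out. Chgb, encoding a secretory granule protein (16 and 46 against 7 and 16 reads, 2.06 ± 0.54), and the region of St8sia4 and Gm30431 (23 and 37 against 6 and 16, 2.24 ± 0.54) were also called. Chgb held only without fetal replicate 1 (without adult replicate 1 it was at 0.172, without adult replicate 2 at 0.231 and without fetal replicate 2 at 0.0858), and St8sia4 only without fetal replicate 2 (0.148, 0.151 and 0.129 without fetal replicate 1, adult replicate 1 and adult replicate 2). A further 4 named rises held no start of that table. They lay inside Masp1 (2.52), inside the noncoding gene 6030469F06Rik (2.36), 224 bases from Bicdl1 (2.34) and 44 bases from Csn3 (2.31). The region in 6030469F06Rik, with 36 and 81 against 8 and 30 reads, passed with any library left out. The region near Bicdl1 had 7 and 74 reads in the fetal and 7 and 14 in the adult libraries, or 37.4 and 132 against 20.3 and 17.0 CPM, with fetal replicate 2 far above the rest. Without fetal replicate 2 neither it nor the region near Csn3 was tested. Without adult replicate 2 the adjusted p was 0.112 in Masp1, 0.124 near Bicdl1 and 0.125 near Csn3. The Csn3 region (chr5:87924536-87925535), with 8 and 55 against 4 and 14 reads, also lost the call without adult replicate 1 (0.192), and its reads are part of the Csn3 span.

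Among the falls, several regions had almost no fetal read. The region with the fewest (chr16:29208487-29209486) overlapped Plaat1, annotated at chr16:29209133-29230531, which encodes a phospholipid-modifying enzyme. The region's midpoint lay 709 bases from the RefSeq gene start, while distances given for other regions run from the region's edge to the gene. It had 0 and 1 reads in the fetal and 42 and 105 in the adult libraries (edgeR's adjusted p = 3.65e-08). The adult level was 94.2-fold the fetal one on the TMM scale, with an exact 95% binomial interval, which covers counting error only, from 16.7 to 3748. The region in the noncoding gene Mexis (0 and 4 against 42 and 63 reads, -4.15 ± 0.68) and that 5733 bases from Adam12 (0 and 9 against 34 and 85, -3.12 ± 0.57) passed, as did that near Plaat1, with any library left out. By the RefSeq promoter table, 2 of the 8 regions held the start of a protein-coding gene. Jph2 (chr2:163397651-163398650) had 0 and 7 reads in the fetal and 33 and 53 in the adult libraries, or 0 and 12.5 against 95.6 and 64.4 CPM (-3.11 ± 0.66, adjusted p = 0.00404, and 0.121 without adult replicate 1). Plin4 (chr17:56109444-56110443), encoding a lipid droplet coat protein, had 0 and 6 against 29 and 47 reads (-3.14 ± 0.71, adjusted p = 0.00819, and 0.152 without adult replicate 1). Regions in Gm10044 (-3.31) and Ehbp1l1 (-3.03) and 992 bases from Cntn2 (-2.94) completed the 8. Gm10044 lost the call without adult replicate 2 (0.0659), Ehbp1l1 without adult replicate 1 (0.112), and Cntn2 without adult replicate 1 (0.157) or fetal replicate 2 (0.129). The reads at Kcnn4, Jph2, Plaat1 and Sox11 are also part of the span values of those genes.

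The 250 bases before the start, from RefSeq on GRCm38.p6, are shown for 4 called promoters that held a gene start, Kcnn4 and Sox11 (higher) and Jph2 and Plin4 (lower). Of these, Kcnn4 alone passed with any library left out. They run 5′ to 3′ on the strand of the gene. Capitals mark every match, on either strand, to TGANTCA (AP-1), TTGGC (NFI), ACAATGG or ACAATAG (Sox) and TGTGGT (RUNX). The RUNX letters were added after the motif scores were seen.
Kcnn4: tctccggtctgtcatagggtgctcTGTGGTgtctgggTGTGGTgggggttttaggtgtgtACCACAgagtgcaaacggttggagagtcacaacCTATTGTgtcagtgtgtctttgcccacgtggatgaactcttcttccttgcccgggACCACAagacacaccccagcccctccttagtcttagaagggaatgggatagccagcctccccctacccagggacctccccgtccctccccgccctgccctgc
Sox11: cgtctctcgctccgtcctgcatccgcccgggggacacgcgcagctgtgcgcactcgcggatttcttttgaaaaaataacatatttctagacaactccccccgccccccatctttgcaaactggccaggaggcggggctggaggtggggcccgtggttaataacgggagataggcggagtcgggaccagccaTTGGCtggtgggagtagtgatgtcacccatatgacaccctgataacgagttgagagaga
Jph2: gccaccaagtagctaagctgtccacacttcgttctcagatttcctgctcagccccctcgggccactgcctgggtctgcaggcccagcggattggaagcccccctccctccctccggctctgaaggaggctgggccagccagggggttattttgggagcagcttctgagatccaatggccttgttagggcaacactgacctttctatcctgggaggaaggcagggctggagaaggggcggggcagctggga
Plin4: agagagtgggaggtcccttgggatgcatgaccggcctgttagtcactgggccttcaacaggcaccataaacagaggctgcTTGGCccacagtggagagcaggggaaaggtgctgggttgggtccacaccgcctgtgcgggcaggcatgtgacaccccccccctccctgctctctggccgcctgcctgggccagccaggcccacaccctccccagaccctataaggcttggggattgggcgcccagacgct
Kcnn4 lies at chr7:24370013-24370262 (plus strand), Sox11 at chr12:27342719-27342968 (minus strand), Jph2 at chr2:163397994-163398243 (minus strand) and Plin4 at chr17:56109783-56110032 (minus strand). Of the 250 bases of Sox11, 97 lie inside its tested region, and those of the other promoters lie wholly inside theirs. Kcnn4 held 4 matches to the RUNX letters and 1 to the Sox letters, Sox11 and Plin4 held 1 NFI match each, and Jph2 held none. Of 32851 RefSeq promoters of this length, 4614 held the RUNX letters, 5.03% the Sox letters, 41.5% TTGGC and 6.75% the AP-1 letters. Among the called regions that held a start, the RUNX letters were in 3 of 39 higher and 1 of 46 lower promoters, beside 9.61% of the 8066 tested, and the AP-1 letters in 2 of 39 and 5 of 46, beside 4.20%. TTGGC was in 24 of 39 higher (61.5%) and 21 of 46 lower promoters (45.7%), beside 45.9% of those tested, and the Sox letters in 1 of 39 and 2 of 46, beside 2.27%. These are matches of letters and not sites of binding.

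**Figure D3:**
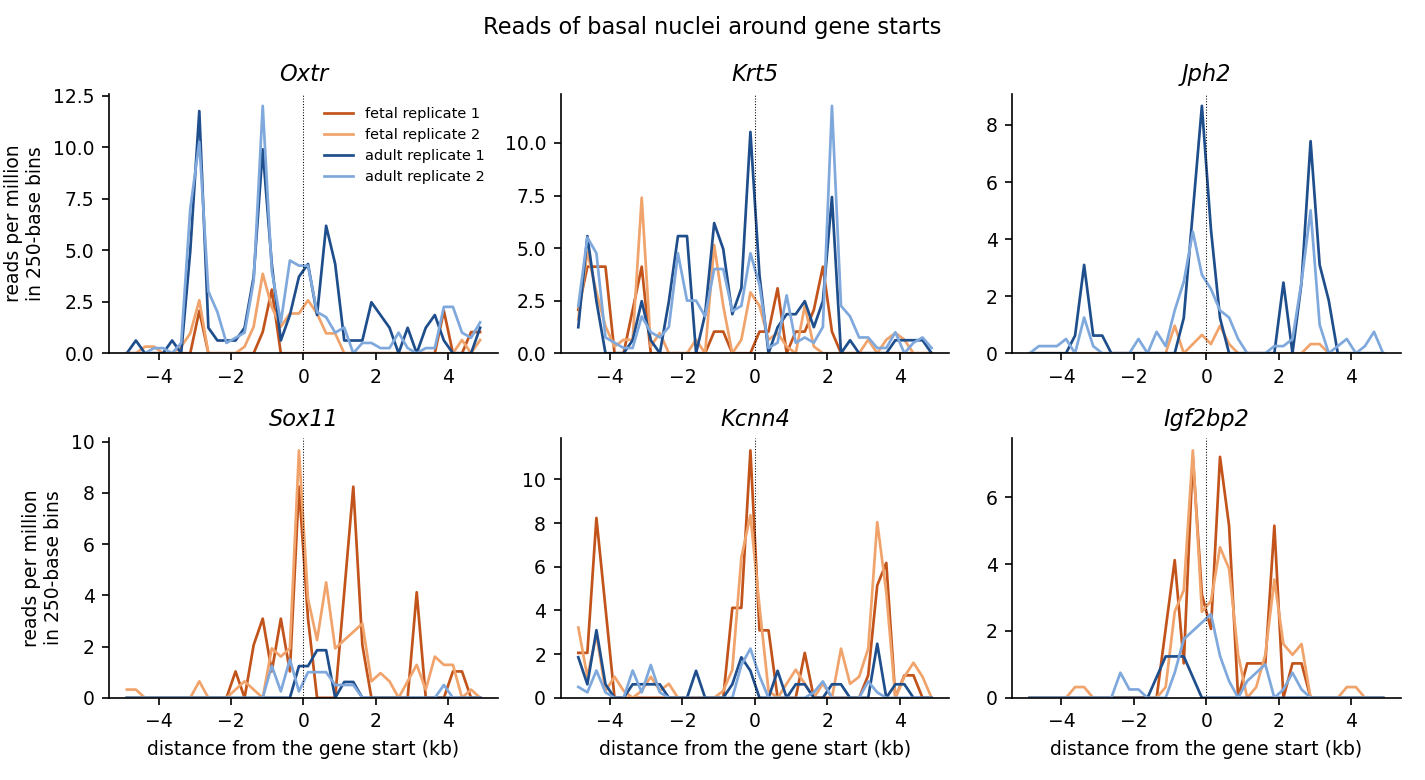
Reads of the basal nuclei in 250-base bins (CPM, vertical) by distance from the gene start (kb, positive into the gene) for 6 genes and 4 libraries. At Jph2 the fetal libraries had 0 and 7 reads in the promoter region against 33 and 53, and at Kcnn4 they had 22 and 64 against 6 and 18.

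Of the distal regions, 3008 of 27776 tested were called (10.8%), 1368 higher (4.93%) and 1640 lower (5.90%) in fetal nuclei. Stages did not overlap at 26.1%, fetal above, and 29.2%, fetal below. The largest named rise, inside Vps45 (chr3:96012486-96013485), had 26 and 82 reads in the fetal and 0 and 0 in the adult libraries, at least 56.8-fold higher against a floor of 3 adult reads over the group. Those 108 reads are part of the 280 fetal reads of the Vps45 span. A region inside Phactr1 (chr13:42696192-42697191) had 22 and 64 against 2 and 2 reads (4.96 ± 0.66), one 8695 bases from Gm40635 28 and 73 against 3 and 2 (4.90), one inside Ercc6l2 18 and 65 against 2 and 2 (4.85) and one inside Tmcc3 18 and 71 against 0 and 5 (4.71). The 5 named falls had no fetal read. They lay inside Cacna1d, a calcium channel gene (chr14:30217712-30218711, 42 and 86 adult reads, at least 27.0-fold lower), inside Atxn7l1 (40 and 70, at least 23.2-fold), inside the noncoding Gm39920 (38 and 60, at least 20.7-fold), inside Fndc3b (25 and 71, at least 20.3-fold) and inside the noncoding Gm34992 (22 and 76, at least 20.7-fold). None of these calls was kept when adult replicate 1 was left out: edgeR then called 0 of 31100, and 3603 had an unadjusted p below 0.05. DESeq2 on all libraries called 1459.

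Motif scores described which binding sequences were more or less open. The authors' chromVAR deviation score gives, for each nucleus, how far reads at regions with a motif exceed or miss expectation, and it was averaged over the basal nuclei of each library. Of 388 distinct motifs, limma called 185 at an adjusted p under 0.05 (47.7%), 73 higher (18.8%) and 112 lower (28.9%) in fetal nuclei. The fit estimated 1 spread shared by all motifs, with a standard error of 0.08 for every difference, so these calls rank motifs by size. With each motif's own spread, the same linear model in limma called 0 of 388, with 132 at an unadjusted p under 0.05. The libraries of the stages did not overlap, fetal above, for 31.4% of the 388 motifs, and fetal below for 43.6%. The 16 named motifs were taken from called motifs without overlap, so that they stood apart follows from the choice. All differences below are fetal minus adult mean scores, and all 16 named motifs stood apart between the stages and were called with any library left out and against either adult class.

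RUNX and NF-κB motifs were lower in the fetal nuclei. Runx1, whose column is identical to that of Runx3, scored -0.79 and -0.81 in the fetal and 0.52 and 0.59 in the adult libraries (-1.35), and Runx2 -0.78 and -0.74 against 0.11 and 0.15 (-0.89). RUNX1 is a regulator of basal and luminal identity in the adult gland. Nfkb1 scored -0.76 and -0.91 against 0.49 and 0.09 (-1.13), and Rel -0.53 and -0.79 against 0.39 and 0.01 (-0.86), both subunits of the inflammatory factor NF-κB. Tead4, a partner of YAP, scored 0.18 and -0.12 against 0.85 and 0.88 (-0.83). The nuclear receptors Nr2f1 (-0.83), Nr2f2 (-0.73) and Esr1 (-0.72) completed the falls. The p63 motif was the highest of these in both stages, with Trp63 at 2.89 and 2.81 against 3.48 and 3.33 (-0.55).

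Nfix, a nuclear factor I motif, showed the largest rise, from -0.94 and -0.96 in the adult to 0.19 and 0.63 in the fetal libraries (1.36). The other columns of the family went the other way: Nfic scored 0.32 and 0.51 in the fetal against 0.77 and 0.78 in the adult libraries (-0.36). Of 11 Sox motifs 9 were called higher and 0 lower, with a median of 0.46 beside -0.04 over all motifs; with each motif's own spread 0 of the 11 were called. Sox9 scored 1.21 and 1.04 against 0.21 and 0.29 (0.88), and Sox4 0.84 and 0.87 against 0.19 and 0.17 (0.67). The zinc finger motifs Zfp281 (1.04), Zfp148 (0.80), Patz1 (0.69), Sp4 (0.68) and Zfp740 (0.67) made up the rest of the named rises. Of 13 AP-1 and CNC columns 10 were called lower. Fos scored 0.02 and -0.03 against 0.38 and 0.13 (-0.26, limma's adjusted p = 0.00281). That call was lost without adult replicate 1 (adjusted p = 0.393), and against adult class 8 alone the Fos difference was 0.010 (adjusted p = 0.962). The insulator motif Ctcf was called higher (0.41). Of 18 ETS, 4 TCF and LEF, and 2 GATA columns limma called 0, with 0 at an unadjusted p under 0.05. In nuclei with 4000 to 10000 reads, which brings the depths of the stages closer, 152 motifs were called.

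**Figure D4:**
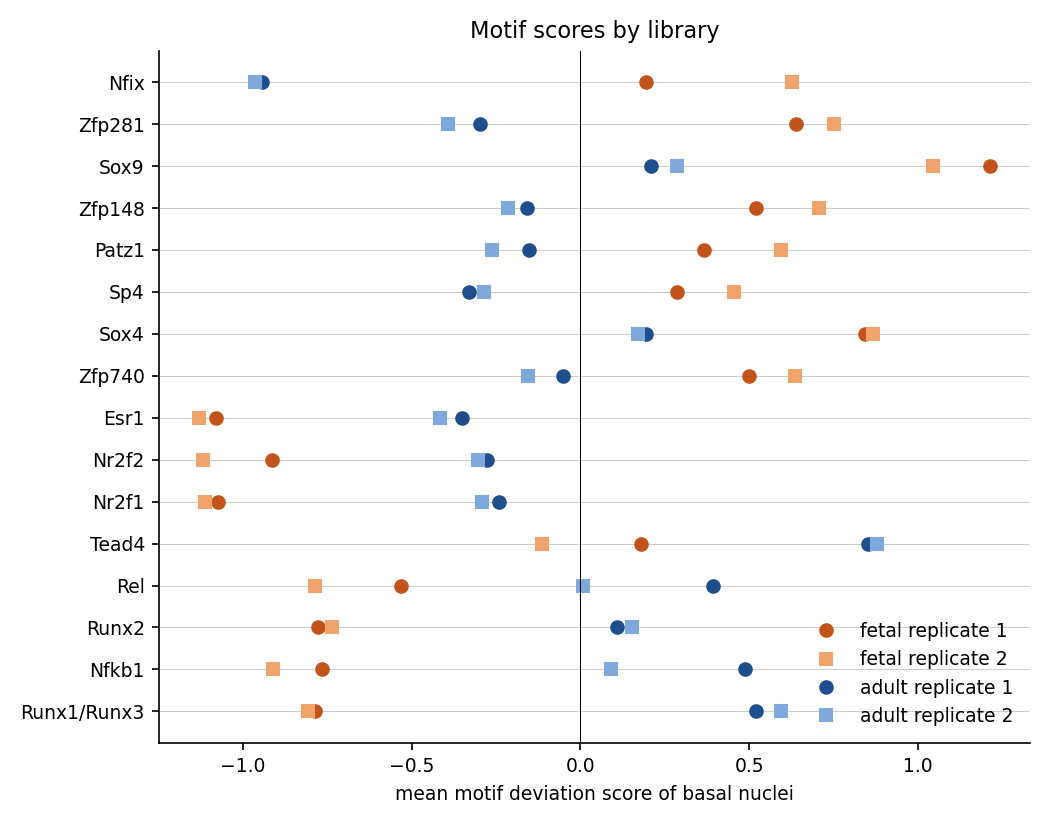
Mean motif deviation score of the basal nuclei (horizontal, no unit) in each library for the 8 named rises and 8 named falls. Runx1/Runx3 stood at -0.79 and -0.81 in the fetal and 0.52 and 0.59 in the adult libraries, and Nfix at 0.19 and 0.63 against -0.94 and -0.96.

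The span of a factor's own gene and its motif are set side by side here. At Runx1 the span was lower in fetal nuclei, 472 and 486 against 756 and 612 CPM (-0.51 ± 0.13, adjusted p = 0.0162), as the motif was; that span lost the call without fetal replicate 1 (0.0824), fetal replicate 2 (0.0652) or adult replicate 1 (0.239). At Nfix the span was lower, 242 and 256 against 552 and 504 (-1.08 ± 0.14, adjusted p = 1.46e-05, with any library left out), while the motif was higher. The span of Runx3, whose motif column is that of Runx1, changed by 0.71 ± 0.28 and did not pass edgeR's test (adjusted p = 0.131). That of Runx2 did not pass either (-0.26 ± 0.15, adjusted p = 0.340). The Sox9 span did not pass while its motif rose, and the span of Sox11 rose by 2.47 while the Sox11 motif rose by 0.25. Sox6 (0.69) and Sox13 (0.87) were the other Sox genes of 12 whose spans rose; DESeq2 called 1 of the 12, Sox11. Without fetal replicate 2 their adjusted p were 0.0733 and 0.297; Sox6 also lost the call without fetal replicate 1 (0.0523) and adult replicate 1 (0.173), and Sox13 without adult replicate 2 (0.235).

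Whether the stage difference was the same in the luminal progenitor-like nuclei of the same libraries was tested as an interaction of stage and lineage. Named features were picked for a large basal change, which is a part of this interaction, so their values may be overstated in that direction. Among promoters 112 of 13697 were called (0.818%). For 42 (0.307%) the log2 ratio of fetal to adult was higher in basal than in luminal progenitor-like nuclei, and for 70 (0.511%) it was lower. Of the 112 regions, 29 were also called in basal nuclei, 25.9% of the 112 and 15.4% of the 188. Kcnn4 rose in basal nuclei and was lower in the fetal than in the adult luminal progenitor-like nuclei, at 102 and 122 against 158 and 178 CPM, and the difference between the lineages was 3.04 on the log2 scale (adjusted p = 3.49e-07). Jph2 had 2 and 12 reads in the fetal and 3 and 2 in the adult luminal progenitor-like nuclei, and Plin4 had 7 and 15 against 2 and 2. Both averaged under 10 reads in these nuclei and entered the test through the adult basal reads for which they were named, so no difference between the lineages is drawn from them. The Sox11 promoter rose in luminal progenitor-like nuclei too, from 28.5 and 27.8 to 91.2 and 105 CPM (1.81), and its difference between lineages was 0.15 (adjusted p = 0.977). That of Igf2bp2 was 1.01 (adjusted p = 0.634). The count was 24 without adult replicate 1, 40 without adult replicate 2 and 68 without fetal replicate 1.

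Of the motifs, 135 of 388 differed in their stage difference between lineages (34.8%), in a limma fit that again nearly shared 1 spread. For 75 (19.3%) fetal minus adult was higher in basal than in luminal progenitor-like nuclei, and for 60 (15.5%) it was lower. With each motif's own spread limma called 0, with 102 at an unadjusted p under 0.05. Runx1 fell by 1.35 in basal and by 0.18 in luminal progenitor-like nuclei, a difference of -1.18. Nfkb1 and Rel fell more in the luminal progenitor-like nuclei, by 2.69 and 2.28, and the differences were 1.56 and 1.42. All 18 ETS motifs were called: Elf5, a factor of luminal progenitors, changed by -0.05 in basal and by -1.44 in luminal progenitor-like nuclei (1.39). The p63, Nfic and Gata3 motifs were higher in the fetal than in the adult luminal progenitor-like nuclei and not in the basal nuclei, with differences of -0.76, -0.74 and -0.72. Tead4 differed by -0.64, and without fetal replicate 2 by -0.53 and no longer called (adjusted p = 0.0747). For Sox9 the stage difference was 0.88 in basal and 0.92 in luminal progenitor-like nuclei, and of 11 Sox motifs limma called 0 for a difference between the lineages, with 1 at an unadjusted p under 0.05.

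**Figure D5:**
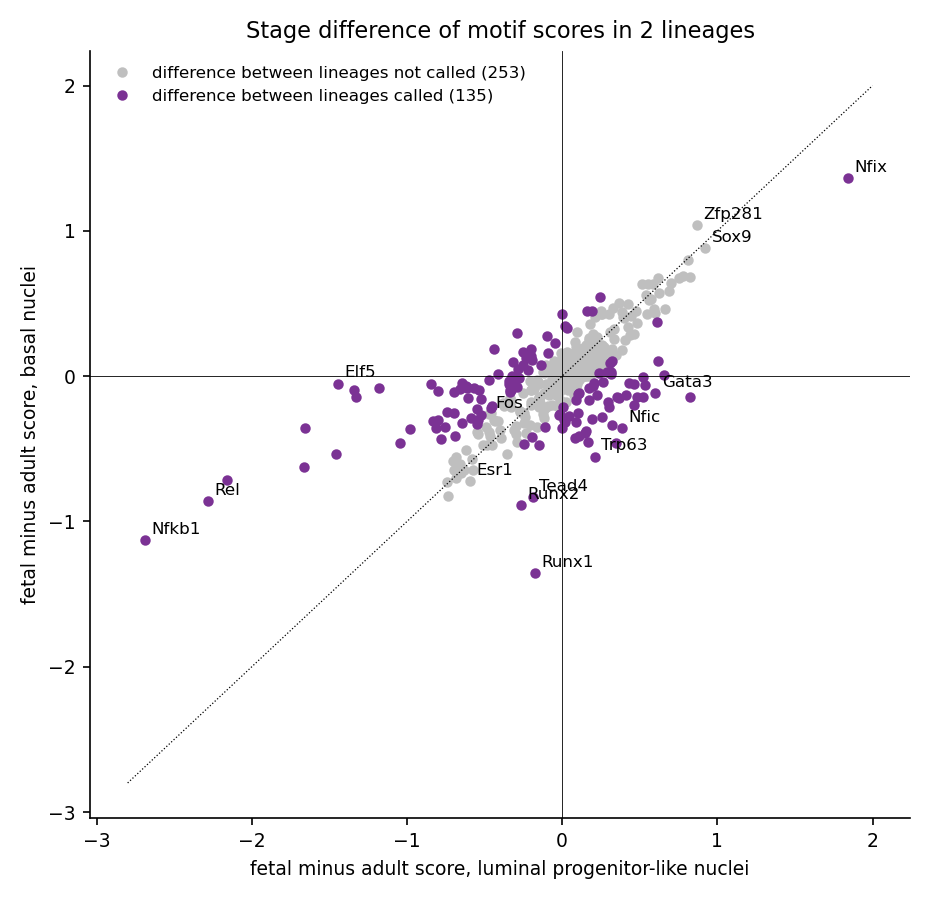
Fetal minus adult mean score of 388 motifs in luminal progenitor-like (horizontal) and in basal nuclei (vertical), with the 135 motifs whose difference between the lineages was called in purple and equality dotted. Runx1 (-1.35 in basal, -0.18 in luminal progenitor-like) lies far below the line, and Elf5 (-0.05 and -1.44) and Nfkb1 (-1.13 and -2.69) lie above it.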

How the data were processed

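Single-nucleus ATAC-seq reads, the authors' class for each nucleus and motif scores were used for 4 libraries, with mean ± SD of the 2 median read numbers per stage at 6653 ± 606 (fetal) and 4229 ± 429 (adult). The deposited read lines (163 to 200 bases, median 195) carry the nucleus barcode. Per the submitters' processing notes the tools were Bowtie2, MACS2 and bedtools on mm10; versions and settings are not given in the sources used here. The authors' deposited region lists gave 19204 promoter and 145453 distal regions of 1000 bases, and the authors' deposited motif deviation score had 427 columns, 388 of them distinct.

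Reads overlapping each region or gene span were counted per library and stage group, so these counts were made here from the deposited reads. Features with a mean of at least 10 reads were fitted with edgeR 4.0.16 (quasi-likelihood, TMM) in R 4.3.3 on the 4 basal sums, motif means with limma 3.58.1, and p-values were adjusted by Benjamini-Hochberg over all features. Stage by lineage was fitted with library as a block for promoters, and as the difference of basal and luminal progenitor-like means for motifs. Checks on simulated counts preceded use. DESeq2 1.42.0, other scalings, filters, counting rules, each adult class and each library left out were alternatives. Replicates are called biological in the labels; sums cannot tell fewer open nuclei from less signal per nucleus. No doublet caller was run.

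Named items were the called features without overlap between stages with the largest changes: 8 promoters and 8 motifs each way, 5 distal regions each way (mean of at least 20 reads), 10 gene spans each way (at least 50), and called members of the gene lists with the defining genes. Promoter and distal regions were named only on chromosomes that the RefSeq promoter table covers. Members and lists were chosen with earlier results of these data known. One named promoter region is not reported here.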

Additional observations from a re-analysis of the deposited data

Results flagged for a closer look

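The stage difference of 6 named motifs differed between the basal and the luminal progenitor-like nuclei by a test of the difference itself (limma adjusted p under 0.05). Named motifs and promoters were picked for a large stage difference in basal nuclei, which is also a part of the tested value. Their values may therefore be overstated in the direction of the basal change. Written as basal minus luminal progenitor-like, the differences in score were -0.48 for Nfix, -1.18 for Runx1, 1.56 for Nfkb1, -0.62 for Runx2, 1.42 for Rel and -0.64 for Tead4, which was not called without fetal replicate 2. In all, 135 motifs were called in this test. The same test in edgeR called 112 promoter regions, among them 6 named ones: 3.04 on the log2 scale at Kcnn4, 2.71 near Bicdl1, -4.31 at Mexis, -5.81 at Plin4, -4.77 near Adam12 and -4.85 at Jph2. The region near Bicdl1 had 75 and 180 reads in the fetal and 214 and 165 in the adult luminal progenitor-like nuclei, that at Mexis 5 and 18 against 2 and 27, and that near Adam12 4 and 19 against 2 and 7. The regions at Plin4, near Adam12 and at Jph2 averaged under 10 reads in the luminal progenitor-like nuclei. They entered the test through the adult basal reads that also made them named falls, so their differences are values near the floor and support no difference between the lineages. Fetal replicate 2 also held 7 nuclei of the adult basal class 8, and fetal replicate 1 held 3; none of them entered a comparison.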

How the results depend on the processing

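The number of calls moved with the processing more than the direction of named items. Against 188 promoters, DESeq2 called 17, a mean of at least 50 reads left 46, adult class 1 alone gave 83 and class 8 alone 7, and leaving out 1 library gave 47 to 218. Against 3008 distal regions these were 1459, 179, 2238 and 503, and 0 to 3876. For 1424 gene spans DESeq2 called 419, class 1 gave 2674, class 8 gave 232, and leaving out 1 library gave 822 to 1301. For 185 motifs class 8 gave 123, own spreads 0, and leaving out 1 library 131 to 190. For the 112 promoters of the stage by lineage test DESeq2 called 11, a mean of at least 50 reads left 23 and leaving out 1 library gave 24 to 80. For the 135 motifs of that test own spreads gave 0 and leaving out 1 library 76 to 105. The causes were not tested; the stricter filter tests fewer regions.

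With all reads as library size the share of promoter calls higher in fetal nuclei was 21.9% instead of 45.2%, and of distal calls 30.2% instead of 45.5%, and the median log2 change of all regions tested was -0.17 instead of 0.0027 and -0.22 instead of -0.030. The promoter share of reads, fetal minus adult, was -2.07 percentage points, -5.64 against class 1 and 1.78 against class 8, and the distal share -0.18, -2.54 and 2.30; without 1 library they ranged from -2.85 to -1.28 and from -1.49 to 1.12.

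The labels give same-numbered libraries no link besides the number and do not say whether they were handled together. The correlation of their deviations was 0.18 for motif scores. The replicate block gave 179 promoters, 2471 distal regions, 2138 gene spans, 173 motifs and 117 motifs of the stage by lineage test.

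Some values changed sign: Krt18 was 0.20 without fetal replicate 2, 0.16 without adult replicate 1 and 0.26 against class 1 (lowest with 1 library left out, -0.41), and Sox10 (highest 0.17) was -0.10 without adult replicate 2, -0.20 against class 1 and -0.12 without flanks. Against class 8 the motifs were 0.010 for Fos, which was called at -0.26 in the reported fit, and 0.048 for Elf5 and 0.10 for Gata3, which were not called, and with medians Elf5 was 0.00017. The Sox9 motif differed between lineages by 0.14 without fetal replicate 2.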
